A study of Mus musculus with 4 samples.

Results

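The genes examined were the WNT ligands, their frizzled receptors and the secreted frizzled-related proteins (SFRPs) of the mouse, and the readout was open chromatin around them. Members were the protein-coding genes on the mm10 build whose symbol is Wnt, Fzd or Sfrp followed by a number. There were 33 of them among 21887 protein-coding genes: 19 Wnt genes, 10 Fzd genes and 4 Sfrp genes. Open regions were assigned to a member when they overlapped its gene span extended by 20 kb on either side, which gave 278 of the 170898 regions of the series.

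Open chromatin was mapped by ATAC-seq, a method that marks accessible DNA by letting a transposase insert sequencing adapters into it. All cells were mouse embryonic stem cells of the engineered line 2TS22C with endogenous Sox2 silenced, treated with DOX and grown in 2i serum/Lif medium. One group had been transduced with a lentivirus for SOX2, the other with a lentivirus for SOX17FNV, an engineered SOX17, and each group had 2 libraries titled as biological replicates, each from 900000 cells. The comparison asks how open chromatin in cells rescued by the engineered factor differs from that in cells rescued by SOX2. There was no group without a rescuing factor, and all libraries came from 1 cell line. The labels do not say whether replicates were separate transductions, so every p-value measures only the spread between these libraries.

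WNT ligands are lipid-modified secreted proteins that bind the cysteine-rich domain of frizzled receptors, together with the co-receptors LRP5 and LRP6. In the canonical branch this protects β-catenin from destruction, and β-catenin then acts on genes with the DNA-binding factors TCF and LEF. Other ligands act without β-catenin on cell polarity and movement, and SFRPs carry a frizzled-like domain that can bind WNT proteins outside the cell. In mouse embryonic stem cells canonical signalling favours self-renewal, and 2i medium contains an inhibitor of GSK3, the kinase that marks β-catenin for destruction.

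Promoters of 8 members named in the results are printed here for reference. A called region covered part of each in all 4 libraries except that of Wnt1, which was covered in 1 library. Fzd4, Fzd5 and Fzd7 had the strongest receptor starts of the family, and Wnt5b had the strongest ligand start. Wnt3 was a weak ligand start. Its window held regions called in the SOX2 group alone, and the windows of Wnt1 and Sfrp2 held regions called in the SOX17FNV group alone, in each case outside the printed promoter. Wnt16 is shown as a ligand promoter with a SOX-like word, so the printed set does not show how common such words are among the members. Each promoter below is 300 bases from the RefSeq promoter table of GRCm38.p6, from 250 bases before a listed start to 50 bases after it, written 5′ to 3′ on the gene's strand. Capitals mark a matched word, which is the TCF/LEF word in Wnt5b, a SOX-like word in Fzd7, Wnt3, Wnt1 and Wnt16, and the octamer in Sfrp2.
Fzd4, plus strand, chr7:89404116-89404415: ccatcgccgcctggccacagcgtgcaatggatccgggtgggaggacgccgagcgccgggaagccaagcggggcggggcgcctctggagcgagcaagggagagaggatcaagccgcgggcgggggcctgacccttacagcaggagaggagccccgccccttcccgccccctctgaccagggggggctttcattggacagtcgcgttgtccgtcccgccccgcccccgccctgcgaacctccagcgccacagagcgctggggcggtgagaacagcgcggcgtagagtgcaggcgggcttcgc
Fzd5, minus strand, chr1:64737701-64738000: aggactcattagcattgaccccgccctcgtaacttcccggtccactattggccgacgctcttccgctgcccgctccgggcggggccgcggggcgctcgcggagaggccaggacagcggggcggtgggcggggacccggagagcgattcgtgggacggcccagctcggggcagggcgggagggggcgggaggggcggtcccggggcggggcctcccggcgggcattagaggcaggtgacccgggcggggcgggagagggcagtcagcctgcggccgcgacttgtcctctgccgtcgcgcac
Fzd7, plus strand, chr1:59481897-59482196: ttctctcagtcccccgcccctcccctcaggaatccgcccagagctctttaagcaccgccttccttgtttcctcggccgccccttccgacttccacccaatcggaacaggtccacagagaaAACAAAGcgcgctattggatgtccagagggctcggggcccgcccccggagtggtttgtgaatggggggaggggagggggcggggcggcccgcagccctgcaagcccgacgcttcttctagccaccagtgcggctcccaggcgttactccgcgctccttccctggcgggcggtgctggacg
Wnt5b, minus strand, chr6:119449337-119449636: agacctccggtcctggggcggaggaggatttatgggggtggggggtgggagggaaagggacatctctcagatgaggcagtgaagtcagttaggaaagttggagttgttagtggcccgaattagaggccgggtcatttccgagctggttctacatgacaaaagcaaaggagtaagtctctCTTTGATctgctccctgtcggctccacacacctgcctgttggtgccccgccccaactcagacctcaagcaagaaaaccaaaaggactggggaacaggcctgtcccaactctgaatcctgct
Wnt3, plus strand, chr11:103773925-103774224: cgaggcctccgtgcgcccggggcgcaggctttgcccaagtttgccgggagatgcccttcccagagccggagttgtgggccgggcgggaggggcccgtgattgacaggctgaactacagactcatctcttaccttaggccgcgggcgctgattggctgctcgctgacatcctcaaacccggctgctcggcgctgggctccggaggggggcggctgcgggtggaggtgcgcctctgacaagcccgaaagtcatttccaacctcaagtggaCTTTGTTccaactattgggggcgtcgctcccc
Wnt1, plus strand, chr15:98789607-98789906: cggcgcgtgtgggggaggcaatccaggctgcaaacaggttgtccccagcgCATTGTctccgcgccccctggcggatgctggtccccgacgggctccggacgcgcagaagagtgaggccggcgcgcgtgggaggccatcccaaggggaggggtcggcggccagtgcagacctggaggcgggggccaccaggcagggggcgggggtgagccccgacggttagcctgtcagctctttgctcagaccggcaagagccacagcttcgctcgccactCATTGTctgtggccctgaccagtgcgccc
Sfrp2, plus strand, chr3:83766071-83766370: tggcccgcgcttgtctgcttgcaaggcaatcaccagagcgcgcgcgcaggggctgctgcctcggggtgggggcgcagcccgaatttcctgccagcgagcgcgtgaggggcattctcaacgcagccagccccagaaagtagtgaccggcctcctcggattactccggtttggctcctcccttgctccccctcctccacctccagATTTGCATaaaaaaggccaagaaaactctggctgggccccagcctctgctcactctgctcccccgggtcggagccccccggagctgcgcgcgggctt
Wnt16, plus strand, chr6:22287977-22288276: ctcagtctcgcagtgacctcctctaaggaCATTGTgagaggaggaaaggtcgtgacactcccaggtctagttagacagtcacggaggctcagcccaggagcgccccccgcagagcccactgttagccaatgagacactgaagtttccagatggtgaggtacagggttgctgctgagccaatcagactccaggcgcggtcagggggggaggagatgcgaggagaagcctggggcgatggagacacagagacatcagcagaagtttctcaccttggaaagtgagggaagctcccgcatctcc

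The words searched were CTTTGAT, which TCF/LEF factors bind, the SOX-like words CATTGT and CTTTGTT, the POU octamer ATGCAAAT and 2 joined SOX-OCT words, TTGTNATGC and TTGTATGC. Both strands were read, only exact matches counted, and N stands for any base. The TCF/LEF word shares its first letters with the SOX-like word CTTTGTT, since both factor families bind related DNA. It was present in 2 of 26 listed member promoters, those of Wnt11 and Wnt5b, and in 3.22% of all 21263 promoters of this length. CATTGT was present in the promoters of Wnt1, at 2 positions, and Wnt16, which is 7.69% of the member promoters, against 11% of all promoters. CTTTGTT was present in those of Fzd7 and Wnt3 (7.69%), against 5.01%, and the octamer only in that of Sfrp2 among the members (3.85%), against 1.66%. TTGTNATGC and TTGTATGC matched 0 member promoters, and they matched 0.705% and 0.329% of all promoters. A match is a run of letters in these windows and not a measured binding site.

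The lists held 120341 and 92851 peaks with SOX17FNV and 123214 and 96500 with SOX2, so in each group replicate 1 listed more peaks. Read totals are unknown. Depth was therefore read from the summit pileup, the number of reads or fragments stacked at a peak's summit, whose median over shared autosomal regions was 33 and 24 with SOX17FNV and 35 and 28 with SOX2. The weakest summit listed had a pileup of 11, 10, 12 and 13 in the same order, but listing also depends on the local background. A region with no peak did not reach the peak threshold in that library and is not shown to be closed or to have few reads. Gene starts of embryonic stem cell markers such as Pou5f1 and Nanog were open in all 4 libraries for 8 of 8 genes. The same held for 4 of 5 primitive endoderm markers, 5 of 6 fibroblast markers and 3 of 4 neural markers, so open starts alone do not tell these cell types apart here. Fewer cells with an open site and a less open site in each cell cannot be told apart in bulk libraries.

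Nearly every member had an open gene start in both groups. A start counted as open when a peak lay within 1 kb of it. This was so in all 4 libraries for 32 of 33 members (97%), against 64.5% of all protein-coding genes. The table of starts lists 23 of the 33 members, and for the other 10 (Wnt5a, Wnt7b, Wnt8a, Wnt10a, Fzd2, Fzd3, Fzd6, Fzd8, Sfrp1 and Sfrp4) either end of the gene span was used. Among listed starts alone, 22 of 23 members were open in all 4 libraries, against 64.3% of 17492 genes. The exception in both counts was Wnt8b, a ligand of the developing forebrain, which had no peak within 1 kb of its start in any library, so 3.03% of the members lacked one against 27.6% of all protein-coding genes. The window of Wnt8b still held 5 regions, 4 of them called in all 4 libraries, on chromosome 19 at 44473952 to 44474583, 44487293 to 44487831, 44510777 to 44512248 and 44518296 to 44519387, the last inside Sec31b. Wnt4, needed for female gonad development, and Wnt10b, a ligand that restrains fat cell formation, had open starts in every library only through separate neighbouring regions, and Wnt4 was the only member with no region called in all 4 libraries. The main start region of Wnt4 had pileups of 23 and 16 in the SOX17FNV libraries and 21 in SOX2 replicate 2, with no peak in SOX2 replicate 1. That of Wnt10b had 21 and 22 in the SOX17FNV libraries and 25 in SOX2 replicate 2, again with no peak in SOX2 replicate 1.

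**Figure D1:**
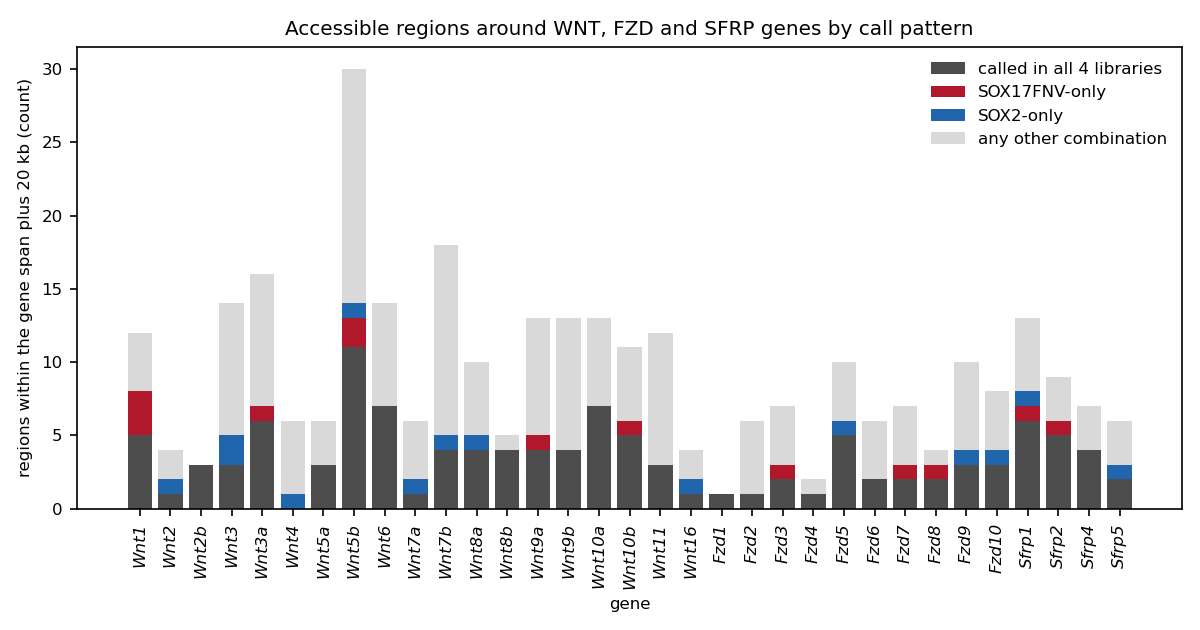
Number of open regions (y axis) in the window of each of the 33 members (x axis), stacked by calling pattern. Every member had at least 1 region, Wnt5b had the most with 30, and Wnt4 was the only member with no region called in all 4 libraries.

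The number of open regions around a member varied widely. The windows held a median of 8 regions per member, from 1 at Fzd1 to 30 at Wnt5b, a ligand of the branch without β-catenin that has 3 listed starts. All 33 members had at least 1 region, whereas 11.1% of protein-coding genes had none. Per 10 kb of window, the ligand with the most regions was Wnt1, which patterns the midbrain, with 2.73, and the one with the fewest was Wnt2 with 0.458. Among receptors the most was 2.37 at Fzd9 and the fewest 0.225 at Fzd1, whose 1 region covered its start. Among inhibitors the values ran from 1.35 at Sfrp5 to 1.85 at Sfrp2. Of the 278 regions, 145 overlapped a member's own span, 37 overlapped another protein-coding gene, and 28 lay in the windows of 2 members, since Wnt1 with Wnt10b, Wnt3 with Wnt9b, Wnt3a with Wnt9a and Wnt6 with Wnt10a are neighbours.

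Receptor and inhibitor starts were more open than most ligand starts. To compare libraries, each pileup was divided by the library's median over autosomal regions called in all 4 libraries, so a relative pileup of 1 is the typical shared region. Over the 30 members with a start region shared by all 4 libraries, the median relative pileup was 0.902 for 16 Wnt genes, 1.45 for 10 Fzd genes and 1.54 for 4 Sfrp genes. For other protein-coding genes the median was 1.48 over shared regions within 1 kb of a start or end. That set holds every such region and not only the strongest per gene. The median of the Fzd genes was above that of the Wnt genes in each library, at 1.35 against 0.879 and 1.50 against 0.917 in the SOX17FNV libraries and 1.43 against 0.814 and 1.50 against 0.964 in the SOX2 libraries. With the 20 listed starts alone the medians were 0.849 for 12 Wnt genes, 1.67 for 6 Fzd genes and 1.21 for 2 Sfrp genes. The ranges of the families overlapped, from 0.642 at Wnt3a to 1.94 at Wnt5b among ligands, from 0.948 at Fzd3 to 2.10 at Fzd4 among receptors and from 0.972 at Sfrp2 to 1.85 at Sfrp1 among inhibitors. Start regions of Fzd genes were also wider, with a median width of 1812 bp against 1254.5 bp for Wnt genes and 1279 bp for Sfrp genes. The families were compared as a description of these libraries, with no test, since genes are not replicates.

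The strongest start or end regions were those of Fzd4, Fzd5, Wnt5b, Wnt10a and Fzd7. At Fzd4, a receptor for WNT ligands and for Norrin that is needed for retinal vessels, the region on chromosome 7 from 89403379 to 89405088 had pileups of 75 and 50 with SOX17FNV and 68 and 59 with SOX2. This region also overlapped the span of Tmem135. At Fzd5, a receptor of eye and placenta development, the region on chromosome 1 from 64737078 to 64739047 had 74 and 46 against 72 and 56. In both genes the higher raw pileup of either group came from replicate 1, whose median pileup was also higher, and the groups overlapped. In relative pileup Fzd4 in the SOX2 group was higher in replicate 2, at 2.11 against 1.94. At Wnt5b the region on chromosome 6 from 119448454 to 119450331, which covers the promoter with the TCF/LEF word printed above, had 65 and 47 against 71 and 51. At Wnt10a, a ligand of tooth and hair development, the region on chromosome 1 from 74803007 to 74803758 had 56 and 46 against 68 and 53. Wnt10a has no listed start, and this region lay at the higher end of its span, which is not shown to be its start. At Fzd7, the frizzled most often linked to pluripotent cells, the region on chromosome 1 from 59481640 to 59483397 had 63 and 49 against 69 and 42. On the relative scale Fzd4 reached 2.18 ± 0.134 in the SOX17FNV group and 2.02 ± 0.116 in the SOX2 group (SD, n = 2), and Fzd7 reached 1.98 ± 0.0937 and 1.74 ± 0.33.

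**Figure D2:**
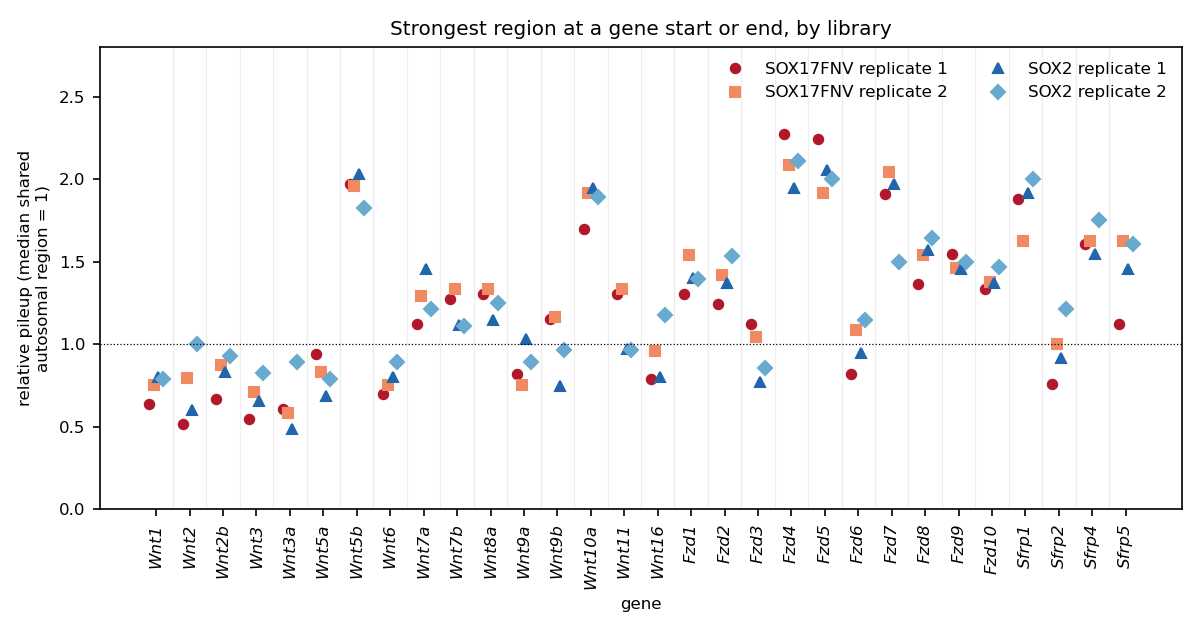
Relative summit pileup (y axis, no unit, 1 is the median shared autosomal region) of the start region of each of the 30 members called in all 4 libraries, 1 point per library, coloured by group and arranged by family. Points of both groups intermix at most genes, and most Fzd and Sfrp genes sit above most Wnt genes.

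No start region passed the test of a difference between the groups across all shared regions. The log2 difference of SOX17FNV minus SOX2 ran from -0.29 at Wnt9a to 0.45 at Wnt9b, and it was above 0 at 12 starts and below 0 at 18. The lowest limma p-value with Benjamini-Hochberg adjustment over all shared regions was 0.331 among these 30 starts, and 1 start, that of Wnt11, had an unadjusted limma p under 0.05. Over all shared regions 2.12% had an adjusted limma p under 0.05 and 13.5% an unadjusted one, so few calls were to be found among 30 starts. Wnt11, a ligand of convergent extension movements, had start pileups of 43 and 32 with SOX17FNV and 34 and 27 with SOX2. At Wnt9b, a ligand of kidney tubule induction, the pileups were 38 and 28 against 26 and 27. At Wnt9a, a ligand of joint development, they were 27 and 18 against 36 and 25. In relative terms these are 1.16 ± 0.0107 against 0.854 ± 0.157 at Wnt9b, and 0.784 ± 0.0482 against 0.961 ± 0.0960 at Wnt9a (SD, n = 2), where the groups did not overlap. The groups also did not overlap at 24.1% of all shared regions with SOX17FNV above and at 18.4% with SOX2 above.

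The promoters of the members were rich in G and C. The median GC content of the 26 listed promoters was 71% and the median number of CpG pairs 28, against 56.3% and 13 over all 21263 promoters. A called region covered part of the promoter in all 4 libraries for 18 of 26 member promoters, against 58.5% of all. Among promoters of 80% GC or more, that was so for 0 of 3 members (Wnt4, Wnt3a and Wnt9a) and for 66% of 282 promoters. Between 70% and 80% it was 8 of 11 members (all but Wnt6, Wnt11 and Wnt1) against 89.2%, and between 60% and 70% it was 6 of 6 against 89%. Under 60% it was 4 of 6, all but Wnt8b and 1 of the 3 Wnt5b promoters, against 39.3%. At Wnt3a, a canonical ligand, the shared start region ran from 59291005 to 59291275 on chromosome 11, at the edge of its promoter, and had pileups of 20 and 14 with SOX17FNV and 17 and 25 with SOX2. At Wnt6 the region ran from 74771952 to 74772438 on chromosome 1, with 23 and 18 against 28 and 25. At Wnt1 it ran from 98790840 to 98792158 on chromosome 15, inside the gene, with 21 and 18 against 28 and 22. Whether GC content affected how many reads these promoters gave was not tested.

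Away from starts, a smaller share of the member regions was common to all libraries. Distances here are to the listed start, or to the nearer end of the span for the 10 members without one. Of the 45 member regions within 1 kb, 33 (73.3%) were called in all 4 libraries, with a median relative pileup of 1.14. Around other protein-coding genes the corresponding share was 75.6% and the median 1.48. Between 1 and 5 kb, 19 of 49 member regions were shared (38.8%), between 5 and 20 kb 36 of 123 (29.3%), and beyond 20 kb 15 of 61 (24.6%). The median relative pileup of the shared regions in these classes was 0.957, 0.843 and 1.05. The highest value in any window was not at a member's start: it was 2.17 at a region inside Arf1, on chromosome 11 at 59227616 to 59229030, in the Wnt3a window, with pileups of 74 and 61 in the SOX17FNV group and 64 and 58 in the SOX2 group. Over all distances 103 of 278 member regions were called in all 4 libraries (37.1%), against 33.8% of all regions and 35.4% of regions within 20 kb of a protein-coding gene. The share was 64 of 182 around Wnt genes, 22 of 61 around Fzd genes and 17 of 35 around Sfrp genes.

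**Figure D3:**
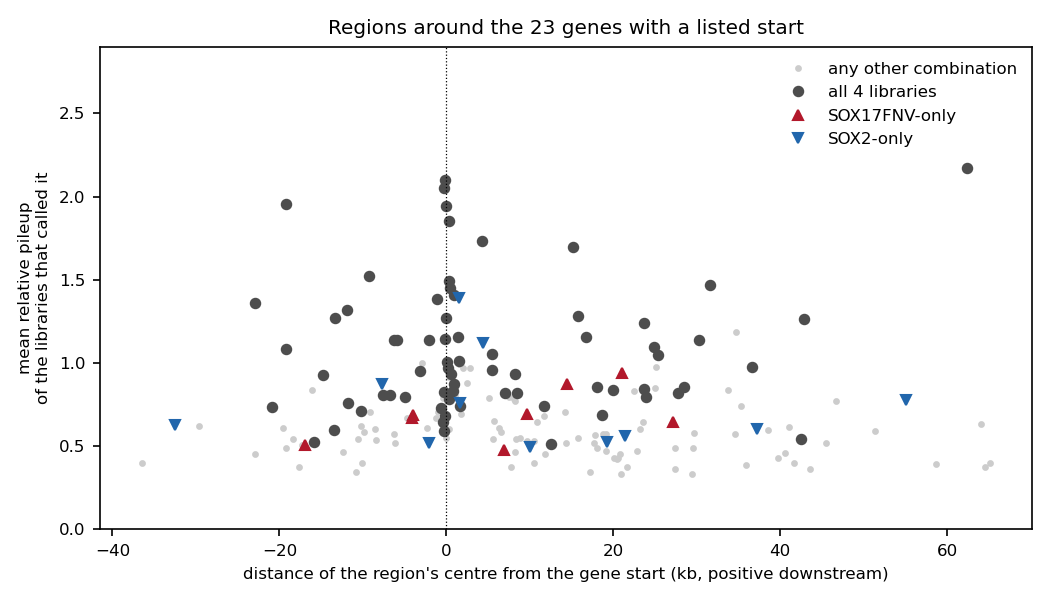
Relative summit pileup (y axis, no unit, mean over the libraries that called the region) of member regions called in all 4 libraries and of the other member regions, against the distance of the region's centre from the listed start (x axis, kb, positive downstream), for the 23 members with one. Colours and shapes give the calling pattern. Values near 2 stand at the start, but also at a region 61721 bp from the start of Wnt3a, and group-specific regions (triangles) are spread over the whole range.

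Few regions were called in 1 group alone, and their shares were close to those of all regions. Regions listed in the 2 SOX17FNV libraries but absent from both SOX2 lists are called SOX17FNV-only, and SOX2-only regions are defined the other way round. Around the members 11 of 278 regions were SOX17FNV-only (3.96%, exact binomial 95% interval 1.99 to 6.97), against 3.06% of all regions and 2.91% of those within 20 kb of a protein-coding gene. There were 14 SOX2-only regions (5.04%, interval 2.78 to 8.31), against 4.09% and 3.72%. The intervals cover counting error only and include these background shares. The libraries called 205 and 159 member regions in the SOX17FNV group and 193 and 156 in the SOX2 group, with means of 182 ± 32.5 and 174.5 ± 26.2 (SD, n = 2). These totals overlapped, and the exact two-sided permutation test gave p = 0.667, where the smallest p that 2 libraries against 2 allow is 0.33. Of the members, 10 (30.3%) had a SOX17FNV-only region in the window, against 19.3% of all protein-coding genes, and 13 (39.4%) a SOX2-only region, against 23%. Wnt5b and Sfrp1 had both kinds, and 12 members had neither, among them Fzd1, Fzd2, Fzd4, Fzd6, Sfrp4, Wnt5a and Wnt11. Inside member spans there were 2 SOX17FNV-only regions of 145 (1.38%), against 2.79% of regions inside protein-coding genes, and 7 SOX2-only regions (4.83%), against 3.72%. The order of the 2 counts turned with the peak lists used: it was 5 SOX17FNV-only against 4 SOX2-only when peaks had to reach a -log10 q of 5, 11 against 3 with the 50000 top peaks of each list, 14 against 8 with lists of equal length, and 15 against 10 when peaks had to cover 50% of a region. The counts also depend on both libraries of a group. The SOX17FNV-only count was 26 when SOX17FNV replicate 1 was left out, 46 when it was SOX17FNV replicate 2, 28 when it was SOX2 replicate 1 and 18 when it was SOX2 replicate 2. In the same order the SOX2-only count was 26, 18, 30 and 38. A group left with 1 library needs that library alone.

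**Figure D4:**
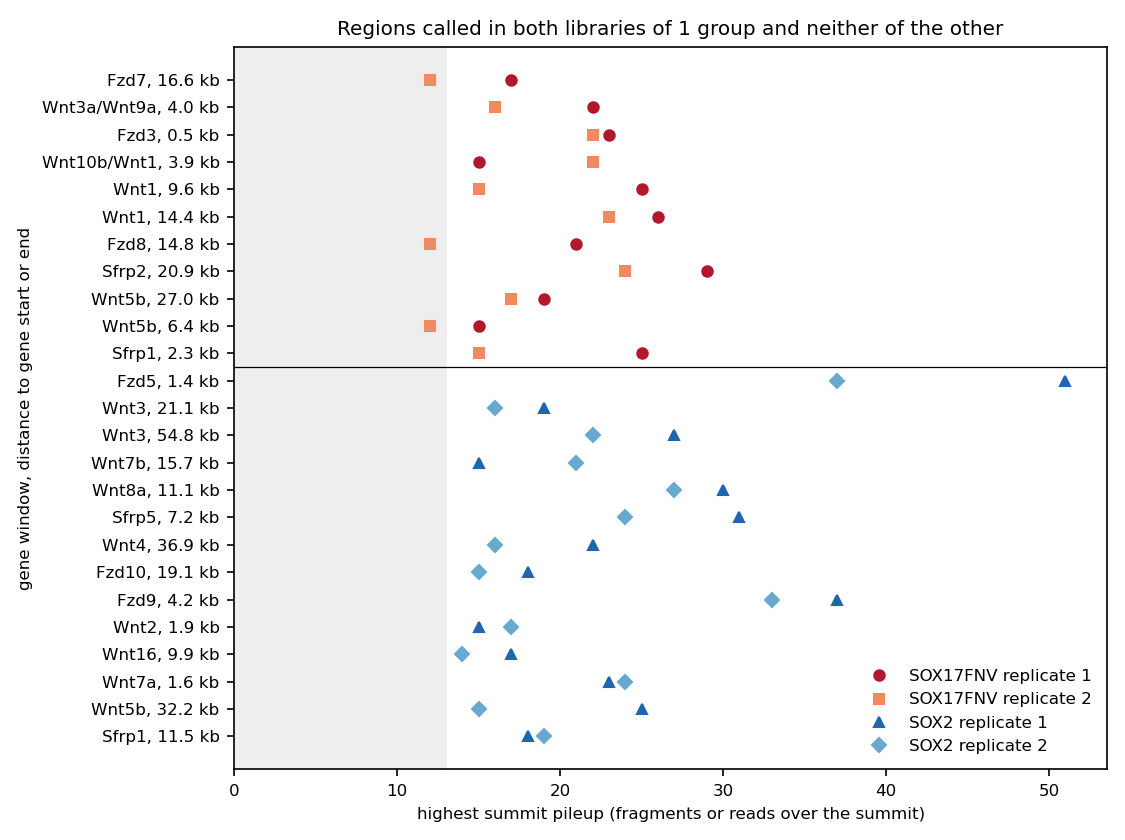
Summit pileup (x axis, reads or fragments) in the 2 libraries that called each of the 11 SOX17FNV-only and 14 SOX2-only regions (y axis, named by member, with the distance to its listed start, or to the nearer span end where none is listed). The grey band ends at 13, the highest of the weakest pileups listed in any library, and most points lie between it and 30, with 3 points of SOX17FNV replicate 2 inside it at 12.

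Among the ligands, SOX17FNV-only regions lay near Wnt1, Wnt10b, Wnt3a, Wnt9a and Wnt5b. Wnt1 had 3, and its SOX17FNV-only minus SOX2-only count was 0 when peaks had to reach a -log10 q of 5 or to be among the top 50000 of their list. They lay on chromosome 15, with pileups of 15 and 22 at 98785679 to 98785967, a region shared with the Wnt10b window, 25 and 15 at 98799418 to 98799695, and 26 and 23 at 98804213 to 98804512, inside Ddn. In each case neither SOX2 library had a peak. Wnt3a and Wnt9a, canonical and joint ligands that lie side by side, shared 1 SOX17FNV-only region on chromosome 11 at 59302636 to 59302970, with pileups of 22 and 16. Wnt5b had 2 on chromosome 6, with 19 and 17 at 119422094 to 119422353 and 15 and 12 at 119459893 to 119460787, the latter inside the gene. All of these summits were weak, below the median pileup of shared regions in the same library.

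SOX2-only regions lay near 8 ligands. Wnt3, the ligand needed for the primitive streak, had 2 on chromosome 11, with pileups of 19 and 16 at 103795319 to 103795830, inside the gene, and 27 and 22 at 103828950 to 103829585, inside Nsf. Wnt8a, a ligand of the early posterior embryo, had 1 on chromosome 18 at 34559199 to 34559843 with 30 and 27. Wnt4 had 1 on chromosome 4 at 137314542 to 137315236 with 22 and 16, and Wnt7a, a ligand of dorsal limb patterning, had 1 on chromosome 6 at 91409536 to 91409788 with 23 and 24. At Wnt7b, which acts in lung growth, the region on chromosome 15 at 85597563 to 85597789 had 15 and 21. At Wnt16, a ligand that protects bone, the region on chromosome 6 at 22298080 to 22298319 had 17 and 14. Wnt2 had 1 on chromosome 6 at 18032317 to 18032728 with 15 and 17, only 137 bp from its shared start region. Wnt5b had 1 at 119499432 to 119499969 with 25 and 15. No SOX17FNV library had a peak at these regions, and only the pileup of Wnt8a came near the median of shared regions in both SOX2 libraries.

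Receptors and inhibitors showed both kinds in equal number. SOX17FNV-only regions lay near Fzd7, on chromosome 1 at 59464842 to 59465550 with pileups of 17 and 12, near Fzd8, on chromosome 18 at 9231032 to 9231324 with 21 and 12, and at Fzd3. Fzd3 is a receptor of planar cell polarity and axon guidance, and its region on chromosome 14 at 65261477 to 65262004 lay inside the gene, 459 bp from its end, with 23 and 22. It was the only group-specific region within 1 kb of a member's listed start, or of a span end where none is listed. It lay 166 bp from the shared start region of Fzd3. Over the whole of chromosome 14, 777 regions were SOX17FNV-only against 141 SOX2-only, whereas each other autosome held more SOX2-only regions, and the part of this in the Fzd3 call was not tested. SOX2-only regions lay near Fzd9, on chromosome 5 at 135246548 to 135246815 with 37 and 33, near Fzd10, on chromosome 5 at 128620201 to 128620601 with 18 and 15, and inside Fzd5. The Fzd5 region on chromosome 1 at 64736126 to 64736373 had pileups of 51 and 37 but deposited folds over the local background of only 1.61 and 1.79, and it lay 704 bp from the shared start region. Sfrp2 had a SOX17FNV-only region on chromosome 3 at 83787206 to 83787456 with 29 and 24, and Sfrp5 a SOX2-only region on chromosome 19 at 42209476 to 42210501 with 31 and 24. Sfrp1 had 1 of each on chromosome 8, with 25 and 15 in the SOX17FNV libraries at 23451971 to 23452310 and 18 and 19 in the SOX2 libraries at 23437672 to 23438096. Another called region lay within 1 kb of 3 of the 11 SOX17FNV-only and 7 of the 14 SOX2-only regions, against 24.9% and 26.1% of such regions in the series.

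Few shared regions passed the test of a difference between the groups. Of the 103 member regions called in all 4 libraries, 1 passed limma at a Benjamini-Hochberg adjusted p under 0.05, or 0.971%, against 2.12% of all 57783 shared regions. It was lower in the SOX17FNV group, as were 1.23% of all shared regions, and 0 member regions were higher, against 0.893%. At an unadjusted limma p under 0.05 there were 12 member regions (11.7%), against 13.5%. The relative pileups of the 2 groups did not overlap at 25 regions with SOX17FNV above (24.3%), against 24.1% of all shared regions, and at 19 with SOX2 above (18.4%), against 18.4%. The median log2 difference was -0.04 over the member regions and 0.04 over all shared regions, and SOX17FNV was higher at 47 of 103 and at 31884 of 57783. By family SOX17FNV was higher at 32 of 64 Wnt regions, 11 of 22 Fzd regions and 4 of 17 Sfrp regions, whose median log2 difference was -0.12. With centring on each chromosome or quantile normalization the Sfrp median was -0.12 and -0.14, and SOX17FNV was higher at 6 and 4 of the 17. None of the Sfrp regions passed the test.

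**Figure D5:**
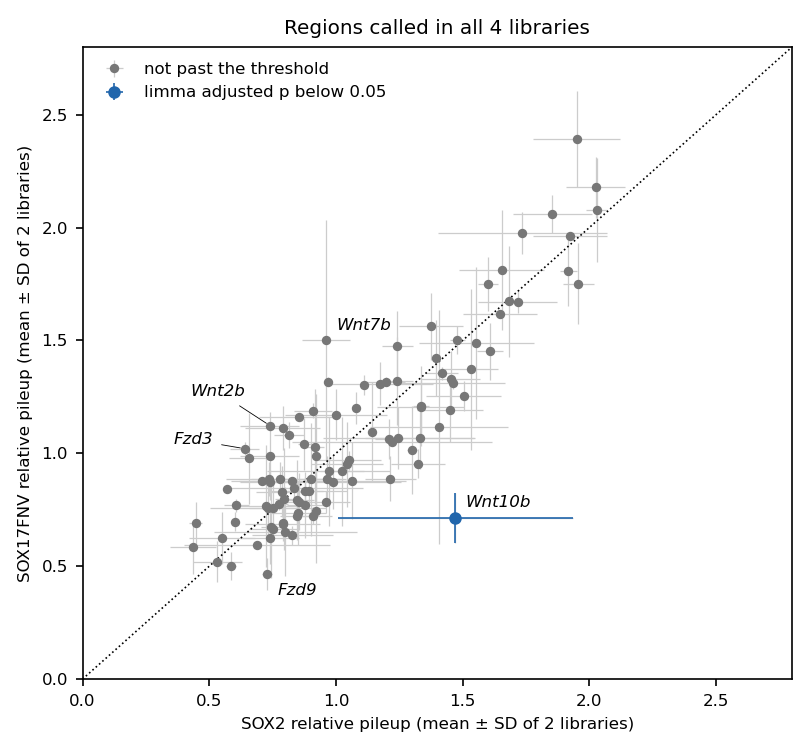
Mean relative summit pileup in the SOX17FNV libraries (y axis) against the SOX2 libraries (x axis) for the 103 member regions called in all 4 libraries, with bars of 1 SD over 2 libraries, no unit. The points follow the dotted line of equality, and the 1 region past the limma threshold, in the Wnt10b window, lies below it at 1.47 in SOX2 and 0.714 in SOX17FNV.

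The region that passed lay in the Wnt10b window, on chromosome 15 at 98753016 to 98753503, 17209 bp from Wnt10b and inside Arf3, which encodes a small GTPase of vesicle traffic. It had pileups of 21 and 19 with SOX17FNV and of 63 and 32 with SOX2. Both SOX2 libraries were above both SOX17FNV libraries, although the SOX2 libraries themselves were far apart. The relative pileup was 0.714 ± 0.110 against 1.47 ± 0.465 (SD, n = 2), and the log2 difference was -1.01 with a standard error of 0.24 (limma, adjusted p = 0.0136). Centred on chromosome 15 alone it was -1.04 (limma, adjusted p = 0.0131), and the exact two-sided permutation test on its relative pileup gave p = 0.33, the smallest it can give. The limma call was lost with quantile normalization (log2 difference -1.05, adjusted p = 0.0700) and without the mean-variance trend (-1.01, adjusted p = 0.0779). The log2 difference was -0.86 without SOX17FNV replicate 1 and -1.17 without SOX17FNV replicate 2. It was -0.69 without SOX2 replicate 1, which had the highest pileup, and -1.34 without SOX2 replicate 2. Those fits leave 1 library in a group, so whether a call is kept there says little about a single region. The limma call was kept without the weakest shared regions, 84 of the 103 member regions remaining (-1.06, adjusted p = 0.0192), and with the replicate number as a block (-1.01, adjusted p = 0.000201).

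The next 4 shared regions by p-value did not pass. Near Wnt7b, 4272 bp outside its span, the region on chromosome 15 from 85529790 to 85531165 had pileups of 62 and 27 with SOX17FNV and 36 and 25 with SOX2. The log2 difference was 0.60 (limma, adjusted p = 0.168). With the replicate number as a block the limma adjusted p was 0.0373. Near Fzd3 the region on chromosome 14 from 65266259 to 65266847, inside Fbxo16, had 33 and 25 against 21 and 19, a log2 difference of 0.68 (limma, adjusted p = 0.179). Chromosome 14 as a whole stood apart, since the median ratio of relative pileup of SOX17FNV to SOX2 over its shared regions was 1.3, and it was 1.19 within 1 Mb of Fzd3 and 1.35 within 1 Mb of Wnt5a. Centred on chromosome 14, the log2 difference at the Fzd3 region was 0.31 (limma, adjusted p = 0.701). At Wnt2b the region on chromosome 3 from 104953025 to 104954011, inside the gene, had 37 and 27 against 23 and 23. Near Fzd9, 13059 bp outside its span, the region on chromosome 5 from 135264106 to 135264971 had 17 and 10 against 26 and 20. The log2 differences of these Wnt2b and Fzd9 regions were 0.61 and -0.65 (limma, adjusted p = 0.208 and 0.271). In simulated shared regions limma called 15% of 2-fold and 93% of 4-fold differences. The noise in that simulation was set by hand, with 100 regions changed at each fold. It therefore does not give the detection limit of these libraries.

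The rest of the WNT pathway was covered by a list of 45 genes, from secreted modulators to nuclear factors, all found in the gene table. Their windows held 673 regions, none of them a member region. Of these, 249 were shared by all 4 libraries (37.0%), 17 had peaks with SOX17FNV alone (2.53%) and 25 with SOX2 alone (3.71%), against 3.06% and 4.09% of all regions. Leaving out SOX17FNV replicate 1, SOX17FNV replicate 2, SOX2 replicate 1 or SOX2 replicate 2 gave 43, 70, 61 and 33 regions with SOX17FNV alone and 66, 38, 74 and 107 with SOX2 alone. Starts or ends were open in all 4 libraries for 39 of the 45 genes and in none for Rspo1, Cer1 and Nkd1. Lef1, a nuclear partner of β-catenin, had 4 SOX17FNV-only regions and 1 SOX2-only region. Axin2, a feedback inhibitor of the canonical branch, had 2 and 0, as did Gsk3a. Tcf7l2, another nuclear partner, had 0 and 3, as did Ror2, a receptor for ligands such as WNT5A, and Apc, a scaffold of β-catenin destruction, had 1 and 3. Tcf7l1 had 0 and 2, and Lrp6 had 1 and 2. Counts of single pathway genes were not followed across the settings. Of the 249 shared regions limma called 1 higher in the SOX17FNV group, against 0.893% of all shared regions, and 4 lower, against 1.23%. For these calls centring on the chromosome is the only alternative given, so they are not shown to be steadier than the call in the Wnt10b window. The higher one lay near Gsk3a, with pileups of 58 and 42 against 42 and 28, a log2 difference of 0.68 (limma, adjusted p = 0.0479), and its adjusted p was 0.0851 when centred on chromosome 7. A region near the co-receptor gene Lrp6 lay on chromosome 6 at 134579181 to 134579983, outside the gene span, which ended at 134566913. Its pileups were 17 and 20 with SOX17FNV and 56 and 36 with SOX2, a log2 difference of -1.13 (limma, adjusted p = 0.00708). Centred on chromosome 6 the difference was -1.03 (limma, adjusted p = 0.0169). At Tcf7l2 the pileups were 41 and 19 against 63 and 43, a log2 difference of -0.75 (limma, adjusted p = 0.0490). In relative terms these were 1.02 ± 0.319 against 1.67 ± 0.187 (SD, n = 2), so the SOX17FNV libraries were far apart. Centred on chromosome 19 the difference was -0.80 (limma, adjusted p = 0.0387). The other 2 lay near Porcn, the enzyme that attaches the lipid to WNT proteins, on the X chromosome, with 32 and 26 against 65 and 63 and with 44 and 40 against 82 and 67. The log2 differences near Porcn were -0.996 and -0.668 (limma, adjusted p = 0.00243 and 0.0302), and centred on the X chromosome they were -0.85 and -0.52 (limma, adjusted p = 0.00891 and 0.129).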

How the data were processed

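ATAC-seq peak lists of 4 libraries, 2 per group by title and genotype label, were used. Per the submitters' processing notes, Bowtie2, SAMtools and MACS2 were used on build mm10. Tool versions, settings and filters, and whether reads were shifted, were not given in the sources used here. The authors deposited for each summit a fold (ratio) over local background, the -log10 of its p-value and q-value, a score and the summit's offset in bp. Peaks were called per library, since each deposited list names a single library. A whole-number summit pileup solved from the deposited fold and -log10 p matched 100% of summits within 0.001.

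Peaks overlapping by at least 1 bp were merged across libraries. The highest log2 pileup per region and library, centred on the library's median over shared autosomal regions, was compared with limma 3.58.1 in R 4.3.3 (trend, 2 against 2, Benjamini-Hochberg over 57783 regions, threshold 0.05). The step was tested on simulated data. Gene spans and promoters came from RefSeq tables of GRCm38.p6, whose coordinates are those of mm10 and which hold no genome sequence. Named with values were members with a region of 1 group, the 5 strongest starts, members with no open start, the 5 shared regions of smallest p, and the densest and sparsest window of each family. Wnt6, Wnt9b, Wnt11 and the other pathway genes were named after their values were seen. Members and lists were chosen with earlier results of these data known. Alternatives varied the peak threshold, list length, overlap, window, start distance, centring, normalization, variance model, block and libraries.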

Additional observations from a re-analysis of the deposited data

How the results depend on the processing

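Requiring a -log10 q of at least 5 left 5 SOX17FNV-only, 4 SOX2-only and 47 shared member regions, 20 members with a start open in all libraries and 0 limma calls, and at 10 these were 1, 0, 20 and 10, with no limma fit run. With the 50000 top peaks of each list there were 11 SOX17FNV-only, 3 SOX2-only and 49 shared regions and 20 open starts. Lists of equal length gave 14 SOX17FNV-only and 8 SOX2-only regions, and peaks covering 50% of a region gave 15 and 10, so the reported order of 11 and 14 turned under these settings and at both -log10 q limits. A window of 5 kb gave 5 SOX17FNV-only and 8 SOX2-only regions, and the span alone 2, 7 and, for shared regions, 55. Leaving out 1 library gave 18 to 46 SOX17FNV-only regions, 18 to 38 SOX2-only regions and 0 to 1 limma calls. Limma called 0 member regions with quantile normalization and 0 without the trend, and over all regions it called 1226 as reported, 462 with quantile normalization, 399 without the trend, 529 at a -log10 q of at least 5 and 0 to 152 with a library left out. Of the calls over all regions 42.1% were higher in SOX17FNV, against 29.0% when centred on each chromosome, 29.0% with quantile normalization, 28.6% without the trend, 33.1% when the weakest shared regions were dropped to leave 43781, 51.3% with the block and, with a SOX2 library left out, 61.2% (replicate 1) and 66.7% (replicate 2). The cause of these changes was not tested.

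Of 21 named genes, the count of SOX17FNV-only minus SOX2-only regions was 0 for Sfrp1 as reported, for 16 genes at a -log10 q of at least 5, 21 at 10, 15 with the 50000 top peaks, 8 with lists of equal length, 12 with a 5 kb window and 14 with the span alone. It turned for 8 genes when 1 library was left out, with ranges of -2 to 3 at Wnt3a, -1 to 5 at Wnt9a, -3 to 2 at Wnt7b, -1 to 2 at Wnt10b, -3 to 1 at Wnt8a, -2 to 1 at Fzd10, -1 to 2 at Fzd9 and -2 to 5 at Wnt5b. The count was 1 at Fzd5 and -1 at Wnt5b at a -log10 q of at least 5, 2 at Wnt7b and -1 at Wnt5b with the 50000 top peaks, 1 at Wnt7b with lists of equal length and 1 at Fzd10 when peaks had to cover 50% of a region.

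Libraries of the 2 groups share replicate numbers, and per the peak names both replicates 1 carry one tag and both replicates 2 another, whose meaning the labels do not give. Deviations of same-numbered libraries correlated at r = 0.233 over 57783 shared regions and 0.0554 over 103 member regions, which with only 2 numbers does not establish pairing. With the replicate number as a block limma called 2 member regions and 3674 of all shared regions.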
